A study of Mus musculus with 20 samples.

Results

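Hearts of Ogfod1 knockout (KO) and wild-type (WT) mice were compared after both had carried a minipump of vehicle only, so the comparison shows what loss of the gene went with in hearts that had received no isoproterenol. It was taken as the libraries labelled KO with vehicle treatment, 5 of them, against those labelled WT with vehicle treatment, also 5, which made 10 of the 20 libraries of the series. All mice were of the C57BL/6N strain, 3 to 5 months old and fed the NIH-31 diet. The minipump ran for 2 weeks and delivered phosphate-buffered saline with sodium ascorbate. The other 10 libraries, 5 per genotype, came from mice whose pump also held isoproterenol, a beta-adrenergic agonist, and are used here only as a second comparison of KO with WT. Whole frozen hearts were powdered, so atria, ventricles and every cell type of the organ went into 1 RNA sample, and stranded total RNA libraries were made from it. The labels give the genotype as KO or WT, without the allele, the deleted part or the tissue of deletion, and do not say that each library is a separate mouse, so p-values measure the spread between libraries.

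OGFOD1 is an oxygenase that uses iron and 2-oxoglutarate. It hydroxylates a proline of the small-subunit ribosomal protein RPS23, close to the site where the ribosome reads the codon, and is linked to stress granules and to the accuracy and rate of translation. In the heart it has been studied for its part in the response to stress and in hypertrophic growth. The comparison is of RNA levels and does not measure translation.

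Levels are given as CPM, counts scaled to a common library total. The count table held 55335 genes, and 14878 had enough counts to be tested. Of these, 19 passed an adjusted p of 0.05 (0.128% of the genes tested, edgeR's quasi-likelihood test with Benjamini-Hochberg adjustment). There were 9 higher in KO (0.0605%) and 10 lower (0.0672%). The lower ones were Ogfod1 itself, 8 other protein-coding genes (Cenpf, Dixdc1, Lgals4, Ptp4a3, Ezr, Hdac4, Kcnj5 and Sorcs2) and the long non-coding RNA gene Gm36827. The higher ones were 5 non-coding genes, among them 2 small nuclear RNAs (Rnu12 and Gm25939), 2 small nucleolar RNAs (Snord17 and Gm25291) and the long non-coding RNA gene AC119982.1, and 4 protein-coding genes (Tspan12, Slc38a1, Ugp2 and Nav3). Changes over 2-fold were found for 6 of the 19: Ogfod1, Rnu12, Snord17, Gm25939, AC119982.1 and Gm25291. The genes with a Gm or accession name fell outside the rule for named genes and were chosen after their values were seen.

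**Figure D1:**
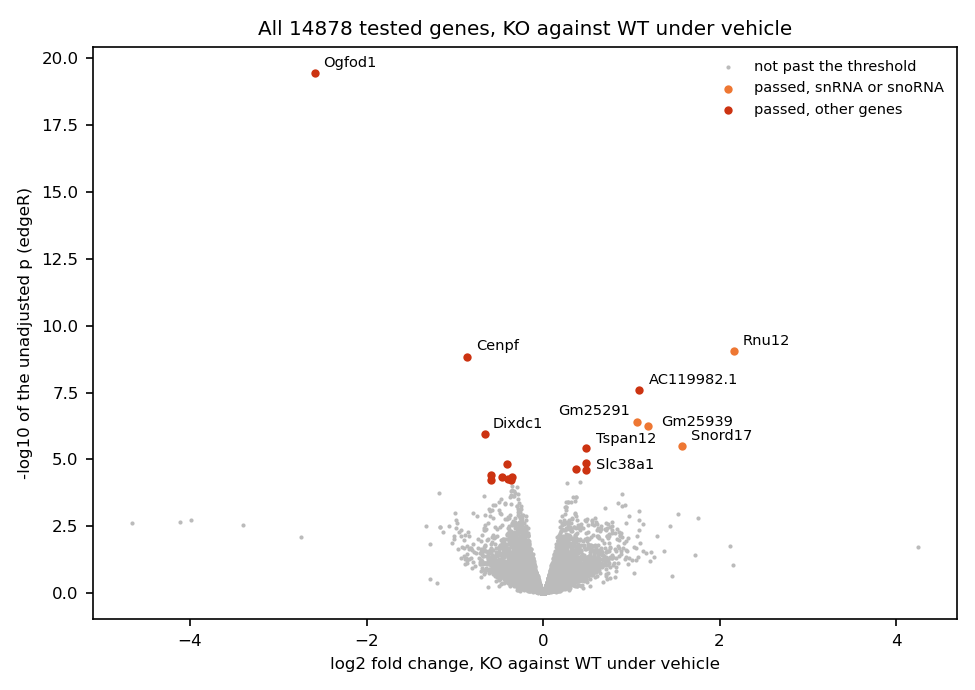
Each point is 1 of the 14878 tested genes, with its log2 fold change of KO against WT under vehicle on the x axis and minus log10 of its unadjusted p on the y axis. Coloured points are the 19 genes that passed, with Ogfod1 at −2.58 and Rnu12 at 2.17, and the grey points far to the left are genes such as Lars2 that were high in a single WT library.

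The 4 small RNAs that passed are shown first, because they made up 4 of the 5 largest rises among the genes that passed. The sequences are those of the GENCODE mouse release 21 transcripts on GRCm38, printed from 5′ to 3′ on the transcript strand. Capitals mark letters that a search of the transcript strand alone found: ATTTTTG in Rnu12 and Gm25939, letters of the kind bound by Sm proteins in small nuclear RNAs; TGATGA and CTGA in Snord17, the letters of the C and D boxes of small nucleolar RNAs; and ACA 3 bases before the end of Gm25291, the place where the ACA box of the other large class of these RNAs lies.
Rnu12: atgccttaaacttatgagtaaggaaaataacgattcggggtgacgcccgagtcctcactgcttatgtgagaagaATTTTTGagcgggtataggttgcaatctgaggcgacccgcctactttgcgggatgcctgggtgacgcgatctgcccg
Gm25939: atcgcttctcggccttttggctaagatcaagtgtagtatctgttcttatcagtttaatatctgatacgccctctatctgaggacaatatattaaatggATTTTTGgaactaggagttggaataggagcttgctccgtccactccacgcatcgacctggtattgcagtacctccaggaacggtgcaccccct
Snord17: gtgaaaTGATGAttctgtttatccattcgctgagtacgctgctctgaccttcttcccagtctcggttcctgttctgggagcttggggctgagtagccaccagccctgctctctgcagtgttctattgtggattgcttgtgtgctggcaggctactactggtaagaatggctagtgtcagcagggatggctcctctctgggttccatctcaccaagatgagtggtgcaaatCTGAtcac
Gm25291: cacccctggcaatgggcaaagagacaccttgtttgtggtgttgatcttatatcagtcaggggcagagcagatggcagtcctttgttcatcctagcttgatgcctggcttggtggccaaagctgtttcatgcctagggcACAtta

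Rnu12, at chr15:83149644-83149794 on the plus strand and 151 bases long, encodes the U12 small nuclear RNA, which recognises the branch site of the minor class of introns, and lies in no other annotated gene. Gm25939, at chr1:72255008-72255198 on the plus strand, lies within the long non-coding RNA gene D230017M19Rik and is 98.4% identical over 191 bases to Rnu2-10, a gene of the U2 small nuclear RNA, which does the same for the major class. Snord17, at chr2:144265979-144266216 on the minus strand, lies within Snx5, and Gm25291, at chr11:51737779-51737922 on the minus strand, within Sec24a. Small nucleolar RNAs guide chemical changes of other RNAs, mainly ribosomal RNA, and are usually cut out of introns of a host gene. Of all 1383 annotated small nuclear RNA transcripts, 3.33% hold ATTTTTG, and of 1507 small nucleolar RNA transcripts, 24.0% hold TGATGA followed by CTGA and 18.3% hold ACA at that distance from the end.

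Ogfod1 (chr8:94037198-94067921, plus strand) had 19.3, 19.2, 19.7, 16.9 and 20.9 CPM in WT libraries 1 to 5 and 3.33, 2.98, 2.49, 4.08 and 3.08 CPM in KO libraries 1 to 5. All 5 KO libraries lay far below all 5 WT libraries. Its mean was 19.2 ± 1.44 CPM in WT and 3.19 ± 0.58 CPM in KO (SD, n = 5 each), and its log2 fold change was −2.58 (SE 0.11) (adjusted p = 5.24e-16, edgeR), in the direction the labels give. Which part of the gene the remaining counts came from was not analysed here. The nearest gene, Bbs2, lies on the opposite strand with its end beside the end of Ogfod1 and had a log2 difference of −0.23 that did not pass (adjusted p = 0.527, edgeR). Of 50 tested genes within 2 Mb of Ogfod1, 2 were at an unadjusted p under 0.05, against 8.31% of all tested genes. These 2 were Bbs2 and Gm45909. Gm45909 had a log2 difference of −0.95 and overlapping groups (adjusted p = 0.309, edgeR). Rps23, the gene of the known substrate, had 29.9 ± 3.2 CPM in WT and 32.3 ± 3.1 CPM in KO (SD, n = 5 each), with overlapping groups.

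Rnu12 stood at 0.612, 0.559, 0.619, 0.566 and 0.585 CPM in the WT libraries and at 1.29, 3.69, 3.07, 3.15 and 2.26 CPM in the KO libraries. The 5 WT values were nearly equal, KO library 1 was the lowest of its group, and the groups did not overlap. The rise was 4.49-fold, or 2.17 in log2 units (SE 0.24, adjusted p = 6.76e-06), from 8 to 16 counts per WT library and 31 to 98 per KO library. With so few counts, the near equality of the WT values does not make the WT level a precise one. Snord17 had 3.88, 1.89, 3.79, 4.02 and 7.02 CPM in WT and 8.63, 15.4, 11.4, 16.7 and 10.8 CPM in KO. Every KO library again lay above every WT library, and the log2 fold change was 1.58 (SE 0.24, adjusted p = 0.00593). Its host Snx5 differed by 0.11 on the log2 scale and did not pass (adjusted p = 0.72).

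The U2-like Gm25939 had 5.51, 3.70, 5.69, 5.30 and 6.39 CPM in WT and 9.04, 13.7, 13.6, 16.0 and 9.71 CPM in KO. The groups did not overlap, and the log2 fold change was 1.19 (SE 0.17, adjusted p = 0.00143). Gm25291 had 2.65, 2.66, 4.45, 4.58 and 4.18 CPM in WT and 5.46, 8.48, 7.87, 9.09 and 8.37 CPM in KO. Here too KO library 1 was the lowest KO value and still above all WT libraries, and the rise was 1.06 in log2 units (SE 0.16, adjusted p = 0.00115). The host of Gm25291, Sec24a, which encodes a coat protein of transport vesicles, differed by 0.17 (adjusted p = 0.66). Counts of U2-like and U1-like genes are uncertain, since reads from near-identical copies can be split or dropped, and how the counting treated them is not given in the sources used here.

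The whole class, looked at after these values were seen, had more positive than negative differences. Of 18 small nuclear RNAs tested, 14 had a positive log2 difference, 9 were higher and 0 lower at an unadjusted p under 0.05, and the median was 0.63. Of 23 small nucleolar RNAs, 19 were positive, 7 were higher and 0 lower at that threshold, and the median was 0.46. The 8 small Cajal body RNAs had a median of −0.06, 2 of them were positive, and Gm25395, chosen after its value was seen, differed by 0.79 (SE 0.24, adjusted p = 0.261). All tested genes had a median of 0.003, with 8.31% of them at an unadjusted p under 0.05, 4.06% higher and 4.25% lower. Members of the class share sequence and library steps and are not replicates. Copies that did not pass included Gm22513, 99.4% identical to the U1 gene Rnu1a1 over 164 bases, with a log2 difference of 0.84 (adjusted p = 0.133), and Gm23971, identical to Rnu2-10 over its 191 bases, with 1.76 (adjusted p = 0.231). Short RNAs made by another polymerase differed in both directions: the 7SK RNA gene Rn7sk by 0.04, the Y RNA genes Rny3 and Rny1 by 1.09 and 0.66 (adjusted p = 0.282 and 0.566), and Rpph1, the RNA of ribonuclease P, by −0.48 (adjusted p = 0.748). Under isoproterenol Rny3 rose by 1.79 on the log2 scale (adjusted p = 0.0228). The summed level of the 3 classes was 152 to 213 CPM in WT libraries and 187 to 285 CPM in KO libraries, so the groups overlapped.

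**Figure D2:**
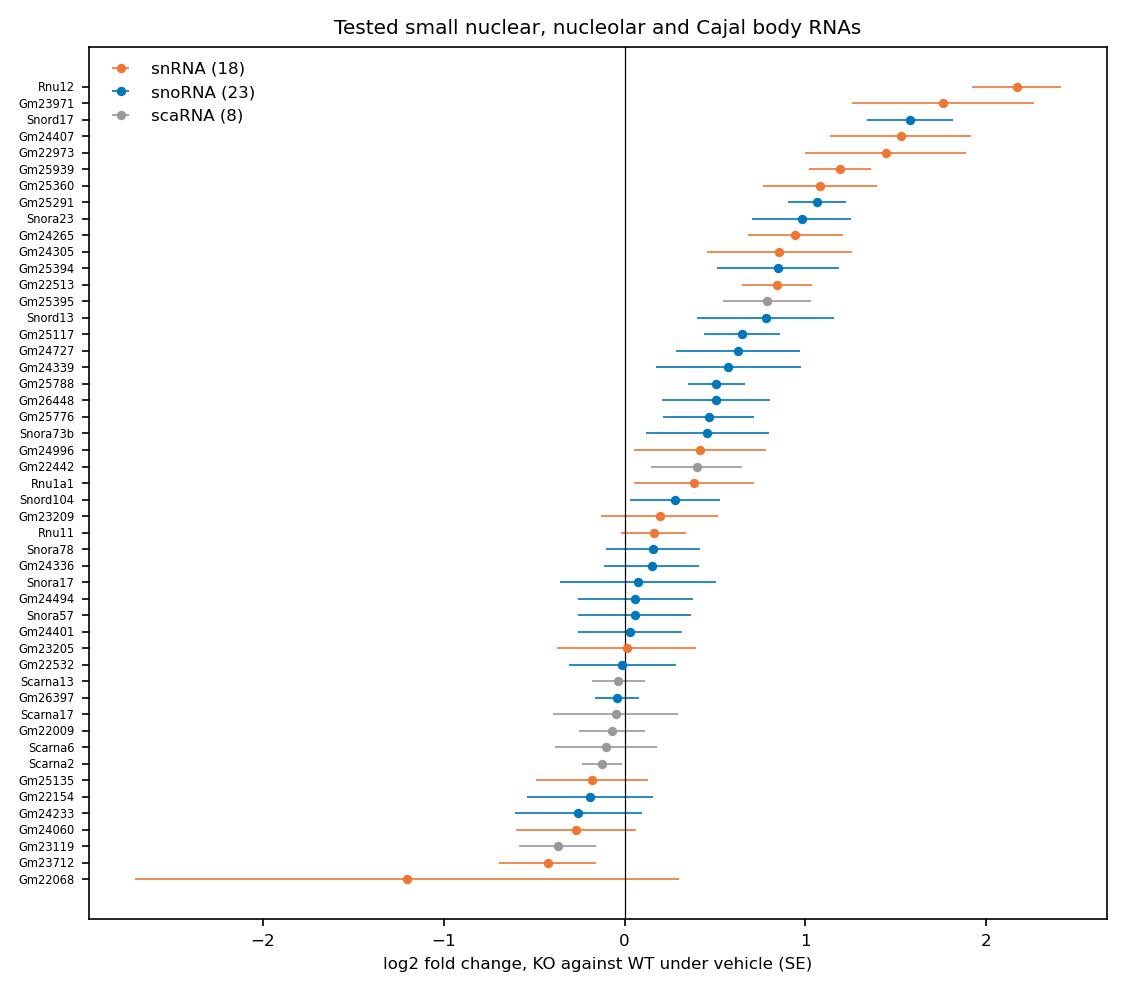
The log2 fold change of KO against WT under vehicle (x axis, bar 1 SE) is plotted for each of the 49 tested small nuclear, small nucleolar and small Cajal body RNAs (y axis). Rnu12 lies at the top with 2.17, most orange and blue points lie to the right of 0, and 6 of the 8 grey Cajal body RNAs lie below 0, with Gm25395 the highest of them at 0.79.

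AC119982.1 is a long non-coding RNA gene at chr19:27260735-27262323 on the minus strand, 6.5 kb from the lipoprotein receptor gene Vldlr. Its WT libraries had 1.84, 1.96, 1.39, 2.16 and 1.48 CPM and its KO libraries 3.29, 3.17, 4.41, 3.89 and 3.84 CPM. The groups were clear of each other, the rise was 1.08 in log2 units (SE 0.14, adjusted p = 9.57e-05), and Vldlr differed by −0.06. Gm36827, a long non-coding RNA gene at chr10:56970329-56982232 with no protein-coding neighbour within 504.2 kb, moved the other way. It fell from 18.2 ± 1.35 CPM to 13.7 ± 1.24 CPM (SD, n = 5 each), which is 0.41 in log2 units (SE 0.08, adjusted p = 0.0198). Long intergenic RNAs as a class had a median difference of −0.06 over 291 tested genes.

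Among protein-coding genes, Cenpf showed the clearest fall after Ogfod1. It encodes a microtubule-binding protein of the kinetochore and nuclear envelope. Its WT libraries had 38.6, 43.0, 34.9, 37.9 and 27.0 CPM and its KO libraries 22.1, 18.9, 19.0, 18.6 and 21.1 CPM. The lowest WT library, number 5, stood above the highest KO library, and the log2 fold change was −0.86 (SE 0.10, adjusted p = 7.11e-06), a 1.81-fold lower level. Of the other 26 tested genes on a cell cycle list 0 passed, and the median of the whole list was −0.05. The cyclin Ccnd1 had 33.7 ± 1.2 CPM in WT and 38.7 ± 2.4 CPM in KO (SD, n = 5 each, log2 difference 0.20, adjusted p = 0.40).

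Dixdc1, whose protein acts in Wnt signalling and binds actin, had 9.28, 8.46, 8.43, 8.80 and 7.91 CPM in WT and 5.21, 6.79, 5.18, 5.01 and 4.87 CPM in KO. KO library 2 was nearer to WT than the rest, and the groups did not overlap (log2 fold change −0.66, SE 0.11, adjusted p = 0.00235). The tetraspanin gene Tspan12, whose product assists Norrin signalling in blood vessels, rose in KO. Its levels were 8.87, 8.32, 9.90, 10.2 and 10.7 CPM in WT and 12.5, 14.0, 13.5, 14.7 and 12.8 CPM in KO, with every KO library above every WT library (log2 fold change 0.48, SE 0.08, adjusted p = 0.00595).

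Slc38a1 and Ugp2, both of nutrient handling, rose. Slc38a1, a transporter of glutamine and other neutral amino acids, had 9.23, 10.3, 9.56, 11.1 and 9.98 CPM in WT and 16.9, 13.4, 14.9, 11.7 and 13.4 CPM in KO. KO library 4 was only just above the highest WT library, and the log2 fold change was 0.49 (SE 0.09, adjusted p = 0.0198). Ugp2, which makes the UDP-glucose used for glycogen, rose from 93.0 ± 7.99 CPM to 121 ± 7.15 CPM (SD, n = 5 each), which is 0.38 in log2 units (SE 0.08, adjusted p = 0.0282). Nav3, which encodes a protein bound to microtubule ends, had 9.36 to 12.2 CPM in WT libraries and 12.0 to 17.4 CPM in KO libraries. The groups overlapped slightly, and its log2 fold change was 0.48 (SE 0.10, adjusted p = 0.0282).

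The other 6 protein-coding genes fell by less than 2-fold. Lgals4, the sugar-binding galectin 4, fell from 30.6 ± 6.01 to 20.2 ± 1.78 CPM, and Sorcs2, a sorting receptor of the sortilin family, from 13.5 ± 2.36 to 9.06 ± 1.03 CPM (SD, n = 5 each), with the same log2 fold change of −0.59. Hdac4, a histone deacetylase that restrains hypertrophic gene programmes in heart muscle, fell from 38.0 ± 3.49 to 29.0 ± 2.06 CPM (log2 fold change −0.39, adjusted p = 0.0475). Ptp4a3, a small phosphatase, fell by 0.46 on the log2 scale, and Ezr, which ties the cell membrane to actin, fell by 0.35 (adjusted p = 0.0428 for both). Kcnj5 encodes a subunit of the potassium channel that acetylcholine opens in atrial and pacemaker cells. It had 30.2, 38.4, 38.6, 32.7 and 32.9 CPM in WT and 25.3, 25.6, 30.8, 26.4 and 26.1 CPM in KO, where KO library 3 overlapped WT library 1 (log2 fold change −0.37, SE 0.08, adjusted p = 0.0475). Across the 19 genes the groups did not overlap in 17, the exceptions being Nav3 and Kcnj5. Over all tested genes the groups were clear of each other in 301, or 2.02%.

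**Figure D3:**
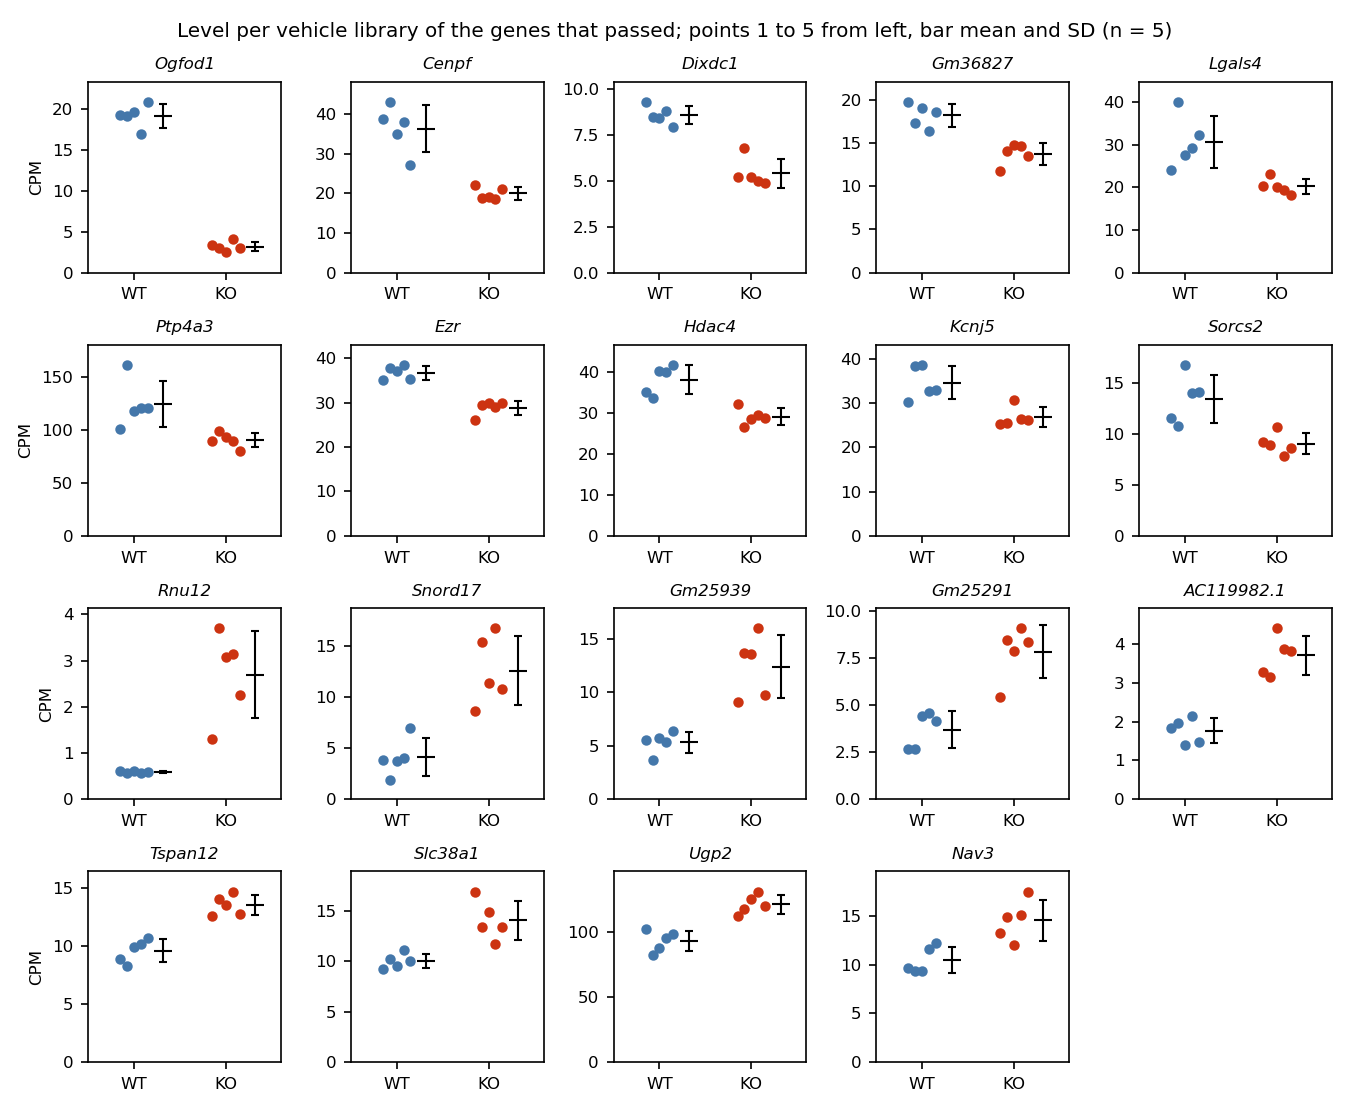
Each panel shows 1 of the 19 genes that passed, with its level in CPM (y axis, from 0) in the 5 WT and the 5 KO vehicle libraries, ordered by library number, and the mean and SD of each group beside the points. Only in Nav3 and Kcnj5 do the WT and KO points overlap.

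1 WT library stood apart from the other 9. WT library 2 had log2 CPM of 13.21 for Gm42418, a locus that overlaps ribosomal RNA sequence, and 9.18 for Lars2, against 7.09 to 7.64 and 3.61 to 4.29 in the other 4 WT vehicle libraries. Without it, 7 genes were higher and 7 lower, and 13 of the 19 still passed. The 6 that no longer passed were Ugp2, Nav3, Lgals4, Ptp4a3, Ezr and Kcnj5, with adjusted p from 0.0579 (Lgals4) to 0.137 (Kcnj5), and their directions were the same. The vehicle libraries held 15169950 to 36398437 counts each, of which 55.57% to 61.92% were mitochondrially encoded. The KO and WT libraries overlapped in this share (exact permutation test, two-sided, p = 0.286).

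The next genes by p lay just outside the threshold. Myl4, the atrial form of the essential myosin light chain, had 147, 112, 165, 148 and 157 CPM in WT and 230, 195, 183, 189 and 177 CPM in KO. The groups did not overlap, but the adjusted p was 0.0510 (log2 difference 0.41, edgeR). Itga1, a collagen-binding integrin, differed by 0.28 (adjusted p = 0.0556) and Map7, a microtubule-associated protein, by −0.36 (adjusted p = 0.0644). Ppm1k, the phosphatase that activates breakdown of branched-chain amino acids, differed by −0.29 (adjusted p = 0.0704), and Slc27a1, a fatty acid transporter, by −0.35 (adjusted p = 0.0865, a value shared with Adra1a and Sema3b). The last genes inside were Hdac4, Kcnj5 and Sorcs2, at an adjusted p of 0.0475.

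The remaining results concern 48 gene lists, in which only Ogfod1, Cenpf and Kcnj5 passed, so the values below describe differences that did not pass. All tested genes had a median log2 difference of 0.003 and their quartiles were −0.10 and 0.10. Ribosomal proteins and translation, the processes closest to OGFOD1, differed little. Of 77 cytosolic ribosomal protein genes 0 passed, 66 had a positive difference, and the median was 0.06. The largest was 0.27, for Rpl13a. The 52 translation factors had a median of −0.03 and a range of −0.23 (Eif3b) to 0.20 (Eef1g), the 24 stress granule genes a median of −0.03, and the 38 ribosome biogenesis genes a median of 0.009. In none of these 4 lists did a gene pass, and 2 to 4 members of each were at an unadjusted p under 0.05, where 8.31% of all tested genes were.

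The stress genes downstream of the transcription factor ATF4, which respond to impaired translation and amino acid shortage, had 11 of 31 members higher at an unadjusted p under 0.05 and 0 lower, with a median of 0.17. Of all tested genes, 4.06% were higher and 4.25% lower at that threshold. None of them passed the adjusted threshold. Asns, which makes asparagine, had 1.22, 0.769, 1.70, 1.24 and 1.35 CPM in WT and 1.79, 4.64, 2.11, 5.24 and 2.00 CPM in KO. The spread lay in KO libraries 2 and 4, the groups did not overlap, and the adjusted p was 0.348 (log2 difference 1.29, SE 0.42). Trib3, a pseudokinase induced by ATF4, was highest in the same 2 libraries, at 2.41 and 1.39 CPM, against 0.417 to 0.831 CPM in the other 3 KO libraries and 0.360 to 0.675 CPM in WT. Aldh1l2, a mitochondrial folate enzyme, had 7.11 ± 1.1 CPM in WT and 9.24 ± 1.5 CPM in KO (SD, n = 5 each, log2 difference 0.37, adjusted p = 0.267). Endoplasmic reticulum chaperones (25 genes, median 0.07) and heat shock proteins (26 genes, median 0.02) also had 0 genes that passed. Hspa4l, a chaperone of the Hsp110 family, had groups that did not overlap (log2 difference 0.24, adjusted p = 0.146).

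Genes of the fetal and hypertrophic programme differed in both directions. Of 26 tested, 0 passed, 7 were higher and 3 lower at an unadjusted p under 0.05, and in 5 the groups did not overlap. Over all tested genes 8.31% were at that threshold, and 2.02% had groups that did not overlap. Acta1, skeletal alpha-actin, had 48.6, 35.2, 51.1, 65.6 and 51.9 CPM in WT and 125, 68.5, 80.6, 93.3 and 104 CPM in KO. All KO libraries lay above all WT libraries (log2 difference 0.90, SE 0.21, adjusted p = 0.145). Nppb, the gene of brain natriuretic peptide, had 33.1, 17.7, 29.6, 26.8 and 22.1 CPM in WT and 48.8, 37.1, 41.8, 36.3 and 48.3 CPM in KO, again without overlap (log2 difference 0.71, adjusted p = 0.279). Its relative Nppa differed by 0.24 with overlapping groups.

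Myh7, the slow myosin heavy chain that rises in stressed mouse hearts, lay on the other side. It had 218, 350, 297, 188 and 219 CPM in WT and 200, 101, 103, 83.7 and 73.2 CPM in KO. KO library 1 lay among the WT libraries and the other 4 far below them (log2 difference −1.18, SE 0.25, adjusted p = 0.0977). Without KO library 1 the difference was −1.50 and passed (adjusted p = 0.00168, edgeR). That fit is quoted after the value of KO library 1 was seen. Leaving out the KO library nearest to WT favours a pass, so no conclusion is drawn from it. Myh6, the main adult myosin heavy chain, differed by −0.29 (adjusted p = 0.258), and by −0.19 without WT library 2, whose value was the highest. Reads of Myh6 and Myh7 are hard to tell apart where their sequences are alike, which makes both values uncertain. Of 34 sarcomere and Z-disc genes, 29 had a negative difference and 0 passed, with a median of −0.07. Actn2, the Z-disc alpha-actinin, differed by −0.24 (adjusted p = 0.267). Ankrd1, Postn, Col1a1 and Col3a1, markers of muscle stress and fibrosis, differed by −0.21, 0.23, 0.07 and −0.01 with overlapping groups.

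Most ion channel genes had negative differences. Of 28 tested, 18 were negative, Kcnj5 was the 1 that fell past the adjusted threshold, 9 were lower and 1 higher at an unadjusted p under 0.05 (all tested genes: 4.25% lower and 4.06% higher), and the median was −0.13. Kcnq1, the slow delayed rectifier potassium channel, had 24.1 to 26.0 CPM in WT and 18.9 to 21.7 CPM in KO, with no overlap (log2 difference −0.29, adjusted p = 0.211). Kcnk3, a background potassium channel, had 121 ± 4.2 and 100 ± 6.4 CPM, also with no overlap (adjusted p = 0.19), and Kcnj2, the main inward rectifier, differed by −0.37 (adjusted p = 0.208). Among 27 calcium handling genes 0 passed. Cacna1g, a T-type calcium channel, had 13.7 ± 2.1 and 8.94 ± 1.9 CPM (log2 difference −0.60, adjusted p = 0.218). The alpha-1 adrenergic receptor genes Adra1a and Adra1b each differed by −0.32 without overlap (adjusted p = 0.0865 and 0.267), among 34 genes of adrenergic and cAMP signalling with a median of −0.03.

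Metabolic genes differed by small amounts. Of 36 genes of fatty acid uptake and oxidation, 33 had a negative difference, 7 were lower and 0 higher at an unadjusted p under 0.05, against 4.25% and 4.06% of all tested genes, and the median was −0.10. Pnpla2, the lipase that opens fat droplets, differed by −0.25 (adjusted p = 0.258) and Acadl, the long-chain acyl-CoA dehydrogenase, by −0.24 (adjusted p = 0.429). For Acadl, WT library 2, which stood apart, had 402 CPM and the other WT libraries 271 to 291 CPM. The tricarboxylic acid cycle and branched-chain amino acid list had 30 of 37 genes negative, a median of −0.06 and 0 genes that passed. By contrast, none of 73 nuclear-encoded oxidative phosphorylation genes was at an unadjusted p under 0.05, and their median was 0.006. Nmrk2, a kinase that makes NAD from nicotinamide riboside, had 0.96 ± 0.34 CPM in WT and 1.97 ± 0.94 CPM in KO (SD, n = 5 each) with overlapping groups (adjusted p = 0.183). Among clock genes 20 of 24 were negative, with a median of −0.16 and 0 passing. The clock output gene Hlf differed by −0.38 (adjusted p = 0.275), Per1 by −0.34 (adjusted p = 0.332) and Nr1d2 by −0.21, the last with no overlap between groups. The positive clock genes were Lonrf3, Arntl, Nfil3 and Clock, at 0.70, 0.48, 0.15 and 0.14. Under isoproterenol Hlf, Per1 and Nr1d2 differed by 0.20, 0.27 and −0.08, and Arntl by −0.62. The time of day at which hearts were taken is not in the labels, and its part in these values was not tested.

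**Figure D4:**
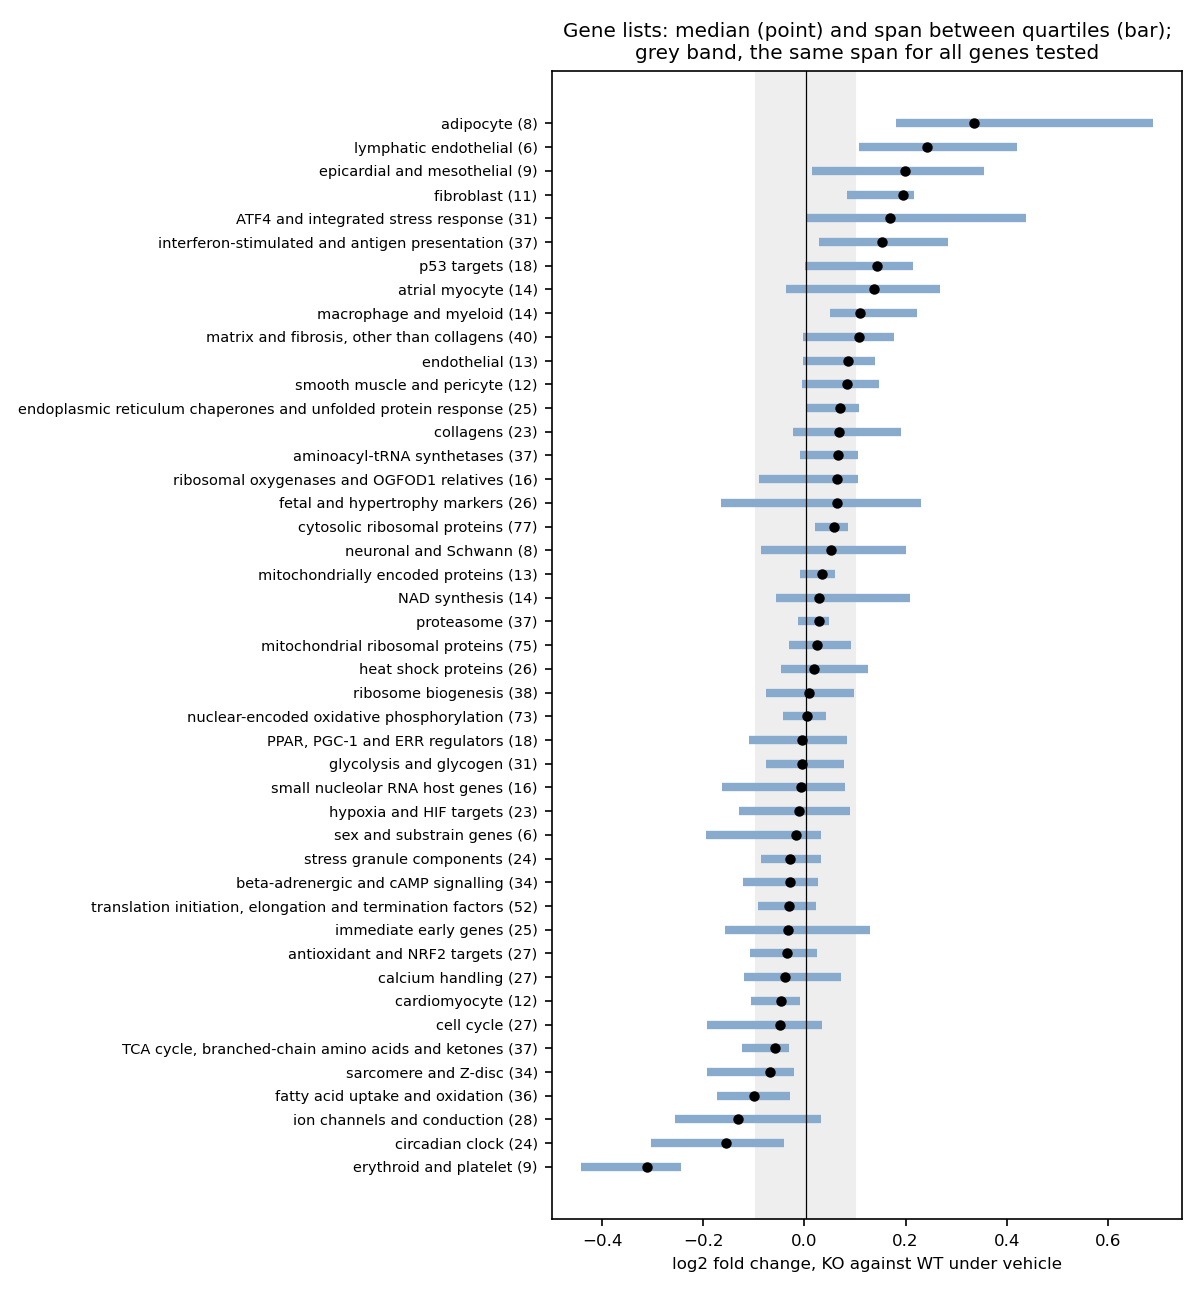
For each gene list with at least 6 tested members (number in brackets), the point is the median and the bar the span between the quartiles of the members' log2 fold changes of KO against WT under vehicle (x axis). The grey band is the same span for all genes tested, −0.10 to 0.10, and most list medians lie inside it.

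Interferon-stimulated and antigen presentation genes had 28 of 37 positive differences, 6 higher and 0 lower at an unadjusted p under 0.05, where 4.06% of all tested genes were higher and 4.25% lower, and a median of 0.15. Ifi44 had 1.98 ± 0.08 CPM in WT and 2.58 ± 0.34 CPM in KO (SD, n = 5 each) without overlap (adjusted p = 0.46). Of 18 p53 targets 4 were higher and 0 lower at that threshold (median 0.14). The largest difference of the 4 was 0.65, for the receptor gene Eda2r, and the smallest p was that of Sesn2, which also responds to ATF4, with a difference of 0.51. Matrix genes other than collagens had a median of 0.11 over 40 genes, and collagens 0.07 over 23, of which Col8a1 differed most clearly (0.36, adjusted p = 0.128). Gpx1, an antioxidant peroxidase, had 19.5 ± 1.3 CPM in WT and 25.3 ± 2.1 CPM in KO without overlap (log2 difference 0.37, adjusted p = 0.102). 0 genes of these lists passed.

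Markers of cell types were summed per library and compared by exact permutation tests, 5 against 5 libraries, whose smallest two-sided p is 0.00794. In bulk tissue, fewer cells of a type and less RNA per cell cannot be told apart. The 12 cardiomyocyte markers summed to 73850 to 78160 CPM in WT and 70440 to 73930 CPM in KO, a log2 difference of −0.08 with p = 0.0159 by the exact permutation test. Most of that difference was in Myh6, whose value is uncertain: without it the other 11 summed to 59340 to 61960 and 57800 to 62450 CPM (−0.03, exact p = 0.27). The 14 atrial myocyte markers summed to 1432 to 1771 CPM in WT and 1744 to 2123 CPM in KO (0.19, exact p = 0.0159), and the 11 fibroblast markers to 1025 to 1164 and 1148 to 1327 CPM (0.18, exact p = 0.0159). Most of the fibroblast sum was Dcn and Gsn, the latter at 584 ± 47 CPM in WT and 668 ± 48 CPM in KO (SD, n = 5 each). Ly6a and Lum differed by 0.24 each, and Tcf21, Fbln1 and Col1a1 by −0.18, 0.05 and 0.07. The 6 lymphatic endothelial markers differed by 0.16 (exact p = 0.0159), the 14 macrophage markers by 0.12 (exact p = 0.0873) and the 13 endothelial markers by 0.05 (exact p = 0.198). In the lymphatic list Mmrn1, a secreted multimerin, had 0.051, 5.31, 0.0387, 4.43 and 9.58 CPM in WT libraries 1 to 5 and 8.6 to 10.2 CPM in KO, while Prox1, the lymphatic transcription factor, differed by −0.10. Mmrn1 was thus near 0 in WT libraries 1 and 3, and WT libraries 2 and 4 lay between these and KO. Under isoproterenol Mmrn1 had 4.5, 4.45, 4.45, 3.77 and 7.89 CPM in WT libraries 1 to 5 and 8.06 to 10.5 CPM in KO. What set these levels was not tested. Without Mmrn1 the other 5 lymphatic markers differed by 0.09 (exact p = 0.0714). Both sums without a gene were chosen after seeing the data. Fat cell markers summed to 168 to 190 CPM in WT and 168 to 256 CPM in KO, and red cell and platelet markers to 295 to 468 and 255 to 375 CPM, with overlap in both. None of the 15 library measures passed after adjustment, with 0.0596 as the smallest adjusted p. Single markers included Dcn, a matrix proteoglycan of fibroblasts, at 299 ± 16 CPM in WT and 343 ± 20 CPM in KO (SD, n = 5 each), and Emcn, an endothelial sialomucin, at 26.4 ± 1.6 and 33.2 ± 3.0 CPM. Neither group pair overlapped and neither gene passed (adjusted p = 0.246 and 0.231, edgeR). Each had the smallest p of its list. Within the endothelial list Pecam1 and Npr3 differed by 0.18 each, and Eng and Flt1 by −0.16 and −0.12. Within the atrial list Myl4, Sln and Nppa had log2 differences of 0.41, 0.42 and 0.24 that did not pass, while Kcnj5 fell. Dkk3, Myl7, Stard10, Pam and Bmp10 differed by 0.28, 0.28, 0.24, 0.15 and 0.13. Nr2f1, Nr2f2 and Tbx5 differed by −0.24, −0.13 and −0.05, and Kcnj3 and Gja5 by 0.03 and 0.008. Pam was the largest member of the atrial sum, at 666 ± 44 CPM in WT and 737 ± 52 CPM in KO (SD, n = 5 each). All 10 libraries had high levels of the defining heart muscle genes, and of the lymphocyte and granulocyte markers only 3 of 13 and 3 of 9 passed the low-count filter. The part that such shifts play in the gene differences was not tested.

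The isoproterenol libraries gave a second comparison of KO with WT that shared no library with the first, only the fit's estimate of the spread. There, 27 genes passed (0.181% of those tested), 8 higher and 19 lower, and 13% of all genes were at an unadjusted p under 0.05. 4 genes passed in both comparisons: Ogfod1, Cenpf, Gm36827 and Kcnj5. Cenpf had 68.9 ± 6.38 CPM in WT and 48.8 ± 4.74 CPM in KO (SD, n = 5 each) under isoproterenol, a log2 fold change of −0.50 (adjusted p = 0.0154). Kcnj5 fell there by 0.48 (adjusted p = 0.0040), with WT libraries at 33.9 to 42.1 CPM and KO libraries at 25.5 to 30.9 CPM. Gm36827 fell by 0.35 (adjusted p = 0.0471).

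Of the 18 genes other than Ogfod1 that passed under vehicle, 17 had the same sign under isoproterenol, Nav3 being the exception at −0.05, and 9 had the same sign with an unadjusted p under 0.05. For 17 of the 18 the difference was smaller in size under isoproterenol, Kcnj5 being the exception. These genes were chosen by their vehicle values, and the size of the change in the second set was not tested as such. Rnu12 had WT libraries at 1.10 to 1.95 CPM and KO libraries at 1.59 to 2.35 CPM under isoproterenol, a log2 difference of 0.44 that did not pass (adjusted p = 0.396). Its WT level under vehicle, near 0.6 CPM, was thus the low value among the 4 groups. Gm25939 differed by 0.73 (adjusted p = 0.0697) and Snord17 by 0.87 (adjusted p = 0.121), both with KO above WT in every library. Dixdc1, Lgals4, Ezr and Sorcs2 differed by −0.11, −0.05, −0.04 and −0.07.

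Whether the KO effect differed between vehicle and isoproterenol was tested for all 14878 genes, and 0 passed by edgeR's quasi-likelihood test, while DESeq2 called 1. At an unadjusted p under 0.05 there were 1142 genes. Rnu12 had the smallest adjusted p, 0.231, with a log2 effect 1.73 larger under vehicle. Dixdc1 followed the same order, with −0.66 under vehicle and −0.11 under isoproterenol, and an adjusted p of 0.518 for the difference. The Myl4, Acta1 and Nppb differences described above were 0.41, 0.90 and 0.71 under vehicle and −0.002, 0.63 and 0.12 under isoproterenol.

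**Figure D5:**
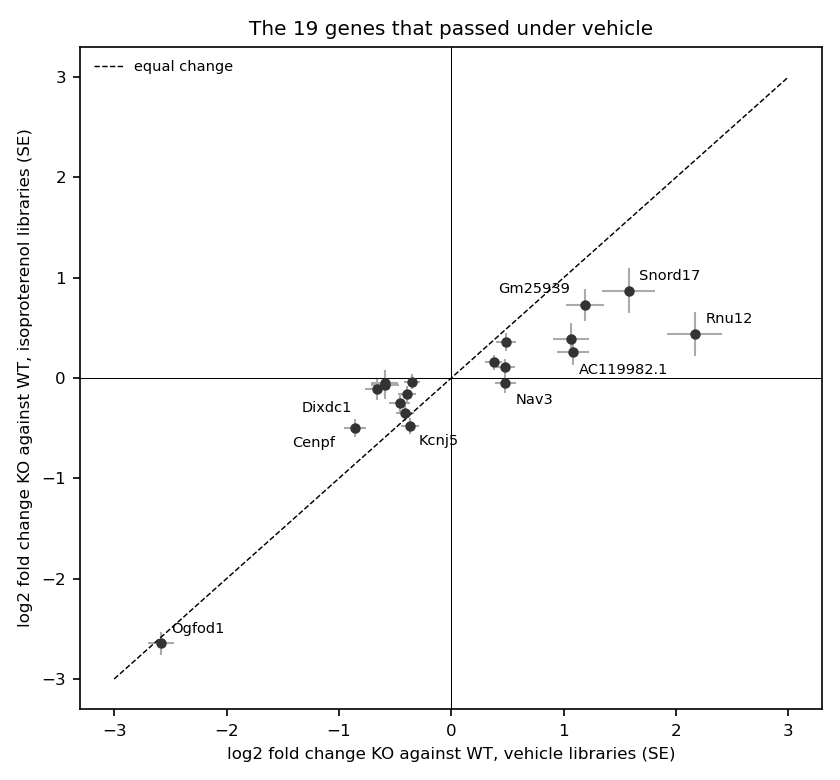
For the 19 genes that passed under vehicle, the log2 fold change of KO against WT in vehicle libraries (x axis) is set against that in isoproterenol libraries (y axis), with bars of 1 SE and a dashed line of equal change. Ogfod1 lies on the line at −2.58 and −2.64, Rnu12 far below it at 2.17 and 0.44, and Nav3 is the 1 gene across the zero line.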

How the data were processed

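RNA of powdered hearts was sequenced as stranded total RNA libraries, 5 per group in 4 groups. The authors deposited raw counts per gene; per the submitters' processing notes, HISAT2 2.1.0, featureCounts 1.6.3, R 3.6.0, limma 3.40.6 and GRCm38 were used, and the annotation release, strand setting and treatment of multi-mapping reads are not given in the sources used here. Of the 55335 gene IDs, 55154 were found in GENCODE mouse release 21, which supplied names, types, positions and sequences.

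All 20 libraries were fitted in edgeR 4.0.16 (R 4.3.3) with TMM scaling, filterByExpr by group and 1 mean per group in a robust quasi-likelihood model, which left 16 residual degrees of freedom. The filter kept 14878 genes. Contrasts were KO minus WT under vehicle, the same under isoproterenol, and their difference, each adjusted by Benjamini-Hochberg over all tested genes with a threshold of 0.05. CPM values use TMM library sizes. The scripts were tested on simulated data. Total counts were 14609808 to 43671055 per library, and all 40 pairs of libraries within the 4 groups differed by more than sampling noise. Separate preparations from the same heart could differ in this way too, so the check does not show that each library is a separate mouse. Each library was counted once.

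The comparison, the rule for named genes and the 48 lists (34 of pathways, 14 of cell types) were chosen with earlier results of these data known. The rule named Ogfod1, Rps23 and 9 hypertrophy markers; genes that passed whose average log2 CPM was 0 or above, with a symbol not of the Gm, Rik or accession kind; the 20 such genes with the smallest p; up to 4 members of each list by p; and genes within 2 Mb of Ogfod1 at an unadjusted p under 0.05. Lists are described by counts and medians, with no set test. Nearest named copies of small RNAs were found with blastn 2.17.0. Alternatives were DESeq2 1.42.0, limma-voom 3.58.1 with and without quality weights, RLE and upper quartile scaling, a looser and a stricter low-count filter, a fit without the mitochondrially encoded genes, 2 surrogate variables (sva 3.50.0), the 10 vehicle libraries alone and leaving out each library. Figures were drawn with matplotlib 3.10.9.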

Additional observations from a re-analysis of the deposited data

Results flagged for a closer look

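In 6 of 66 group and measure combinations checked, 1 library lay far from the others of its group by Dixon's test at the 95% level, which chance does in about 1 in 20 groups. Among KO vehicle libraries, Dixdc1 was at 6.79 CPM in library 2 and 4.87 to 5.21 CPM in the other 4, which lay farther from WT. Ezr was at 26.0 CPM in KO library 1 and 28.9 to 29.9 CPM in the rest. Kcnj5 was at 30.8 CPM in KO library 3, the only KO value within the WT range, and 25.3 to 26.4 CPM in the rest. Myh7 was at 200.1 CPM in KO library 1, against 73.2 to 103 CPM in the other 4. WT library 2 stood apart for the locus Gm42418, with a log2 CPM of 13.21 beside 7.09 to 7.64, and for Lars2, with 9.18 beside 3.61 to 4.29.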

How the results depend on the processing

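Of the 19 genes, 8 kept their call in every alternative that tested them and with each of the 20 libraries left out in turn: Ogfod1, Rnu12, Cenpf, AC119982.1, Gm25291, Gm25939, Dixdc1 and Tspan12. Snord17 lost it with the 10 vehicle libraries alone (adjusted p = 0.115), the other 10 did so in 1 or more settings, and 0 of the 19 reversed. Under vehicle, genes higher and lower, 9 and 10 by the reported fit, were 14 and 30 with DESeq2, 14 and 26 with limma-voom with quality weights, 38 and 79 with no filter on low counts, which tests 32544 genes, 25 and 23 with 2 surrogate variables, and 10 and 18 with the 10 vehicle libraries alone, while upper quartile scaling left 6 lower. In 2 alternatives chosen after seeing the data they were 5 and 4 without the small RNA genes, which removes 4 of the 9, and 18 and 20 without WT vehicle library 2 and KO isoproterenol library 5, which stood apart. Leaving out 1 library gave 7 to 12 higher and 3 to 23 lower, the most without KO isoproterenol library 5 and the fewest without WT or KO vehicle library 5. Under isoproterenol, 8 and 19 became 51 and 47 with DESeq2, 31 and 31 with quality weights, 151 and 99 with no filter, and those higher 5 with upper quartile scaling, 22 with surrogate variables, 5 without small RNA genes and 26 without both libraries that stood apart, while leaving out 1 library gave 1 to 25 higher and 7 to 40 lower. The difference between treatments, passed by 0 genes, was passed by 1 with DESeq2, 34 with no filter, 4 without both libraries and 0 to 1 when 1 library was left out. The causes were not tested. No scaling moved the median of all genes beyond 0.011. Of 1535 list medians, 25 moved by at least the within-group SD between vehicle libraries of the list's mean log2 CPM, which is not an error of the median. Of 187 named genes that did not pass, 31 passed in at least 1 setting, among them Myh7 with DESeq2 (adjusted p = 0.00162), and 11 changed sign. Rnu12, with 8 to 16 counts per WT library, is the called gene with the least depth behind it. No paired analysis was possible because the labels give the groups no shared replicate numbers, and library numbers here only follow record order.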
